A study of Mus musculus with 4 samples.

Results

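The genes described here are 9 members of the PI3K, AKT and mTOR pathway, out of 21883 protein-coding genes measured: the PI3K catalytic subunits Pik3cd and Pik3cg, the PI3K regulatory subunit Pik3r1, the kinases Akt1, Akt2 and Mtor, the mTOR partners Rptor and Rictor, and the transcription factor Foxo1. They were chosen by name, with earlier results of these data known, and each was followed over its RefSeq gene body on mm10. The mark is H3K79me2, dimethylation of lysine 79 of histone H3, mapped by ChIP-seq in C57BL/6 double negative thymocytes. Haematopoietic stem cells had been grown into the DN3 stage on OP9-DL1, a stromal line that presents a Notch ligand, in medium with IL-7 (2 ng/mL) and Flt-3L (5 ng/mL). The control cells received DMSO and the inhibitor cells A939572, a blocker of the desaturase SCD1. The labels do not give its dose or how many cultures went into a library. Each condition had 1 ChIP library, and the 2 inputs were not analysed here. No difference between the conditions therefore has a replicate check or a p-value.

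PI3K turns membrane phosphatidylinositol lipids into a signal that recruits AKT, and AKT in turn holds FOXO transcription factors out of the nucleus and relieves the TSC block on mTOR. mTOR works in a complex with Raptor, which drives protein and lipid synthesis, and in another with Rictor, which phosphorylates AKT. In DN3 thymocytes this pathway carries signals from the pre-T cell receptor, Notch and the IL-7 receptor, and FOXO1 drives genes of IL-7 signalling and of recombination. The methyltransferase DOT1L places H3K79me2 on genes that are being transcribed, mostly downstream of their start and toward the 5′ end.

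The values are the authors' broad peaks. Each has a position, a fold enrichment over local background and a −log10 q, both averaged over the peak. The control list held 124962 peaks, of which 0.643% had q of at most 0.05, and the inhibitor list 35018, of which 18.6% did. Such peaks are called strong here and all others weak. This difference between the whole lists runs in the same direction as most differences given below, and its part in them was not tested. The read depth is unknown. More of the mark per cell and more cells carrying it cannot be told apart. Of 10 T lineage markers 8, Bcl11b, Notch1 and Il2ra among them, held strong peaks in both lists, and the other two, Cd3e and Ptcra, held none in either. No B cell marker of 8 held a strong peak of either library. Of 10 markers of the OP9 stroma 2 (Pdgfrb and Thbs1) held a strong inhibitor peak, as did 2 of 8 myeloid markers (Cd68 and Fcer1g), and none of these markers held a strong control peak. Summed over each list, peaks of any strength covered 17.6 kb of the stromal and 7.80 kb of the myeloid genes in the control list, against 27.7 kb and 7.99 kb in the inhibitor list. Of the stromal markers 7 held a weak control peak, with Acta2 (22.7%) and Dcn (15.3%) covered most, and Col1a1, Col3a1 and Pdgfra had no peak in either list. The part of other cells in the results was not tested.

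A strong inhibitor peak lay over part of the first 5 kb in 8 of the 9 members, all but Foxo1. Such a peak lay there in 5753 of the 17491 coding genes with a known strand. The 250 bases before 6 RefSeq starts of members show how unlike in sequence these starts are. They are given 5′ to 3′ on the gene's strand from the RefSeq table of GRCm38.p6, which is mm10. Capitals mark GC boxes (GGGCGG) and CCAAT boxes (CCAAT), and in the inner Pik3r1 start a TATA box (TATAAA), each searched on both strands. The first Pik3r1 window lies before the outer start and the second before an inner start, 75.6 kb downstream, from which a shorter transcript begins. All bases of the first 4 windows lay under an inhibitor peak, and no base of the last 2 did.
Pik3r1 (chr13:101768218-101768467, minus strand): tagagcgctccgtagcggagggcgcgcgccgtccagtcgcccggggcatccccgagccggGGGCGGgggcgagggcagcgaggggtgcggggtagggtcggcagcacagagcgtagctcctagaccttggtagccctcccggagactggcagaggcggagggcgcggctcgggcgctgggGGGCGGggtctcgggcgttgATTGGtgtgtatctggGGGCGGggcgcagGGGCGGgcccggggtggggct
Pik3r1 (chr13:101692631-101692880, minus strand): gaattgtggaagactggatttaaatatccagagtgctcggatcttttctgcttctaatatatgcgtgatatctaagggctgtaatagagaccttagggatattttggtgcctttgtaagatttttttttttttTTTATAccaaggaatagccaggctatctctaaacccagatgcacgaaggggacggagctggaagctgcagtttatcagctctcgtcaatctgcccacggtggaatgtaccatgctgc
Mtor (chr4:148448332-148448581, plus strand): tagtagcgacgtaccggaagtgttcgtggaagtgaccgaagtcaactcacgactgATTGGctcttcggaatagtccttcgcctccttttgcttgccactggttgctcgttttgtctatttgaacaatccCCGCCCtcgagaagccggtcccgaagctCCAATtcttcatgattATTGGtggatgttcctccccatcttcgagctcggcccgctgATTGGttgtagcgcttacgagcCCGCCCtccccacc
Rictor (chr15:6708131-6708380, plus strand): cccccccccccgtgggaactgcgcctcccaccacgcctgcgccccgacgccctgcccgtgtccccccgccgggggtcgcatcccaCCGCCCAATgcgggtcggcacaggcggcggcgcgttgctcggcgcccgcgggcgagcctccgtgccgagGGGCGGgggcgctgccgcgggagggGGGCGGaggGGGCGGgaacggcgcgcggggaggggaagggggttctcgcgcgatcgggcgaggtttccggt
Akt2 (chr7:27591302-27591551, plus strand): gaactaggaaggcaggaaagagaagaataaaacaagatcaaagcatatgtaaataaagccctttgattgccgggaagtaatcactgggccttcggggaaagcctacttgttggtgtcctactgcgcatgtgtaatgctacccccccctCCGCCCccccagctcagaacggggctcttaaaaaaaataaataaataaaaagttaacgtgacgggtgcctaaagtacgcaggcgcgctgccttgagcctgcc
Foxo1 (chr3:52268087-52268336, plus strand): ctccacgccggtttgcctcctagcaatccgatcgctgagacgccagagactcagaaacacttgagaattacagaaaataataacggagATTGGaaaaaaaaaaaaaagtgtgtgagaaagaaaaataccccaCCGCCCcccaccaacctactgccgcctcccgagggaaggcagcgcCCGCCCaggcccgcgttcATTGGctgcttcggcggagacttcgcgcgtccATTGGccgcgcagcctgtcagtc

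The starts of Pik3r1 and Rictor were rich in CpG, with 30 and 40 CpG dinucleotides in these 250 bases, against a median of 6 over 32817 RefSeq promoters. Foxo1 had 20, Mtor 19 and Akt2 10, and an inner Pik3cd start, not printed here, had 19. GC boxes were found 4 times each at Pik3r1 and Rictor, 2 times each at Mtor and Foxo1 and once at Akt2. Of all promoters 32.7% hold at least 1. In the Rictor window 1 GC box overlaps the CCAAT box. CCAAT boxes were found 4 times at Mtor and 3 times at Foxo1 (33.8% of all promoters hold one). The inner Pik3r1 start had 6 CpG, no GC box and 1 TATA box (12.4%). The inner Akt1 start, not printed here, was also rich in CpG, with 31 CpG and 4 GC boxes. No base of that Akt1 window lay under a peak of either list. The FOXO element GTAAACA (3.16% of promoters) was present once at the outer start of Akt1 and once at the inner of the 2 Pik3cg starts. The E-box CACGTG (6.02%) was in none of the 17 windows of the members. These matches describe letters and say nothing of binding. Over all 17 starts that RefSeq lists for the 9 genes, 12 lay under an inhibitor peak and 3 under a control peak, against 24.4% and 7.57% of the starts of all 32817 promoters. The 3 were 2 starts of Pik3cd and the inner start of Pik3r1.

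Pik3cd encodes p110delta, the PI3K catalytic subunit that predominates in lymphocytes (chr4:149649168-149702566, minus strand, 53.4 kb). Control peaks covered 74.7% of it, the most of the 9 genes, and inhibitor peaks 100%. The control cover was almost all 1 peak of 39.8 kb that began 1.43 kb before the gene start, at 1.94-fold enrichment and a −log10 q of 0.992. That peak was wide for its list, in which only 0.0680% of peaks were as wide. In the inhibitor list 1 peak of 70.1 kb held the whole gene, with a fold of 4.01 and a −log10 q of 9.58. It ran 13.3 kb before the start and into the 3′ ends of the neighbours Clstn1 (3.05 kb) and Tmem201 (0.534 kb). The outermost start in the promoter table lies 3.86 kb inside the annotated gene, and distances are counted from the gene's 5′ boundary. The difference of 25.3 percentage points was the smallest that reached 25, the size counted here as a difference. Over the first 5 kb of the gene both lists covered 100%, so at the start the cover itself was the same, by a weak control peak and a strong inhibitor peak.

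Pik3cg encodes p110gamma, the catalytic subunit that G protein-coupled receptors activate (chr12:32173397-32208677, minus strand, 35.3 kb). Peaks covered 6.90% of it with DMSO and 38.1% with A939572. The 3 control peaks were 0.391 to 1.49 kb wide, and the one nearest the start lay 0.520 to 2.01 kb into the gene. The inhibitor list had a compact domain of 11.1 kb there, from 1.91 kb before the start to 9.19 kb into the gene, with a fold of 3.34 and a −log10 q of 7.26. The other 4 inhibitor peaks were weak and short. Beyond that domain this gene thus held only scattered weak peaks in both lists, whereas Pik3cd was covered to its end by a strong peak with A939572.

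Pik3r1 encodes p85alpha, the regulatory subunit that holds the catalytic subunits stable and brings them to phosphorylated receptors (chr13:101680761-101768217, minus strand, 87.5 kb). Control peaks covered 54.9% of it in 10 pieces. The piece nearest the start was 20.7 kb wide and lay 0.890 to 21.6 kb into the gene, with a fold of 2.06 and a −log10 q of 1.09. Inhibitor peaks covered 96.2%, nearly all of it by 1 peak of 82.4 kb that began 3.03 kb before the start. This was the strongest peak over any of the 9 genes in its list, with a fold of 4.43 and a −log10 q of 12.4, and 0.908% of inhibitor peaks had a fold as high. The inner start printed above lay under this peak and, in the control list, under a weak peak of 5.78 kb (fold 1.63).

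Akt1 encodes the AKT isoform most widely expressed in tissues (chr12:112653821-112674884, minus strand, 21.1 kb). It showed the largest difference of the 9, with 6.79% covered with DMSO and 96.9% with A939572, 90.1 points apart. The control list had 1 peak of 1.43 kb, 1.39 to 2.82 kb into the gene, with a −log10 q of 0.0348. The inhibitor list had 1 peak of 29.4 kb with a fold of 2.53 and a −log10 q of 3.24. That peak began 0.651 kb into the gene, just past both RefSeq starts, and ran beyond its 3′ end over 99.7% of Siva1, a gene of the p53 response on the opposite strand. This peak cannot be divided between Akt1 and Siva1.

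Akt2 encodes the AKT isoform best known for insulin action (chr7:27591552-27640826, plus strand, 49.3 kb). Control peaks covered 11.2% of it, in 3 pieces of 0.872 to 3.74 kb, and inhibitor peaks 62.4%. The main inhibitor peak spanned 28.7 kb, from 0.152 to 28.9 kb into the gene, with a fold of 2.97 and a −log10 q of 3.78. In both AKT genes the inhibitor peak left the outer start itself bare and the control peak nearest the start was short, 1.43 kb in Akt1 and 0.899 kb in Akt2. The 3′ part of Akt2 held only 2 weak inhibitor peaks, whereas Akt1 was covered to its end.

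Mtor encodes the kinase of both mTOR complexes (chr4:148448582-148557685, plus strand, 109.1 kb). Of the 9 genes it had the least cover, 0.503% with DMSO and 8.08% with A939572, a difference of 7.57 points that did not reach 25. The inhibitor cover lay mostly at the 5′ end. A strong peak of 5.76 kb spanned the start, from 0.925 kb before it to 4.84 kb into the gene, with a fold of 2.45 and a −log10 q of 2.27. Over the first 5 kb the inhibitor list therefore covered 96.8% and the control list 0%. The only control peak in Mtor, 0.549 kb wide, lay 68.1 kb downstream with a −log10 q of 0. The other strong inhibitor peak touched the last bases of Mtor but held the start of the next gene, Exosc10. Mtor also overlaps the coding gene Angptl7, which lies within it.

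The short domain at Mtor stood apart from those of the other long members. Among 690 coding genes of 80 kb or longer with a strong inhibitor peak in their first 5 kb, that peak reached a median of 41.3 kb into or past the gene (quartiles 17.5 and 77.1 kb). The reach of 4.84 kb at Mtor was matched or undercut by 8.26% of them. The reach at Rictor (67.0 kb), Pik3r1 (79.4 kb) and Rptor (96.4 kb) was matched or exceeded by 30.9%, 24.4% and 14.5%. This comparison was chosen after the values had been seen.

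Rptor encodes Raptor, the scaffold that brings substrates to mTOR complex 1 (chr11:119602905-119899591, plus strand, 296.7 kb). Its 19 control peaks, of at most 3.51 kb each, covered 8.87%, and its 18 inhibitor peaks 57.0%. The first inhibitor peak was the widest over any of the 9 genes, at 96.1 kb, and only 0.543% of its list was as wide. It began 0.298 kb into the gene and had a fold of 2.42 and a −log10 q of 1.98. Another strong peak lay far downstream, 251.5 to 262.4 kb from the start, with a fold of 2.27. All 19 control peaks were weak, with folds of 1.43 to 1.81. Of their length 89.4% lay within inhibitor peaks.

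Rictor encodes the partner that defines mTOR complex 2, the kinase complex for AKT (chr15:6708349-6800401, plus strand, 92.1 kb). Peaks covered 45.9% of it with DMSO and 83.9% with A939572. The first control peak spanned 27.0 kb, from 0.708 to 27.7 kb into the gene, with a fold of 2.08 and a −log10 q of 0.651. In the inhibitor list a peak of 69.0 kb began 2.01 kb before the start and had a fold of 4.23 and a −log10 q of 10.3. With DMSO the 2 complex-defining partners looked unlike each other: Rictor had 1 broad weak domain at its start and Rptor scattered short peaks. At the first 5 kb the control list covered 85.8% of Rictor and 21.3% of Rptor.

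Foxo1 encodes the FOXO factor that AKT inactivates and that supports Il7r and Rag expression in early lymphocytes (chr3:52268337-52350109, plus strand, 81.8 kb). Its cover was 51.9% with DMSO and 97.7% with A939572, 45.8 points apart. The control cover came in 13 weak peaks with folds of 1.52 to 1.78, spread from 2.82 to 80.4 kb with no strong piece near the start. The inhibitor list joined this stretch into 1 peak of 79.9 kb, from 1.25 to 81.1 kb into the gene, and all control bases lay within it. Its fold was 2.18 and its −log10 q 1.29, which is a q of 0.0509, just outside 0.05. Foxo1 was therefore the only member without a strong peak, although 0.865% of inhibitor peaks were as wide as this one.

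**Figure D1:**
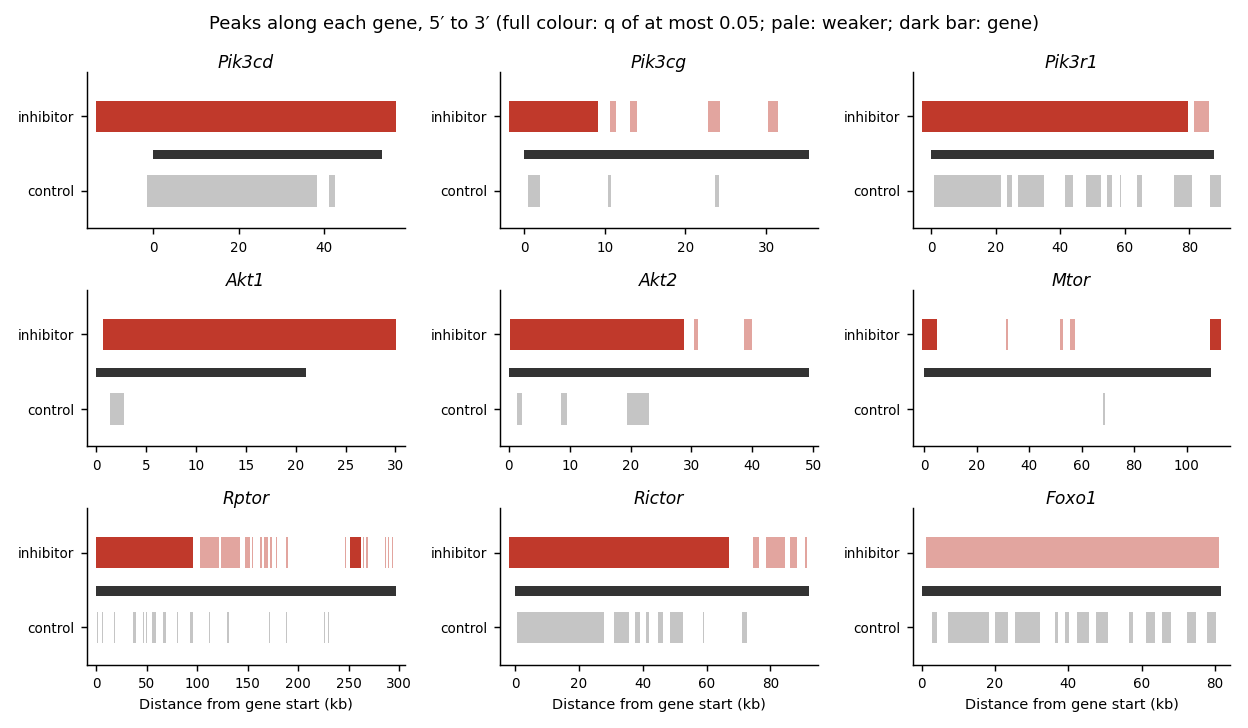
Peaks over the 9 genes by distance from the gene start in kb, one panel a gene with its own scale; the dark bar is the gene, red bars are inhibitor peaks and grey bars control peaks, pale where q is above 0.05. Each gene but Foxo1 has a full-colour inhibitor peak, Mtor only in its first 4.84 kb and at its last bases, and every control peak is pale.

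Read together, all 9 genes had peaks in both lists (of all coding genes, 55.3% had any control peak and 51.4% any inhibitor peak). All 9 had a higher covered percent with A939572, and the share of all coding genes higher by any amount was not counted. Over the summed length of all coding genes, inhibitor peaks covered 20.1% and control peaks 12.1%. In 8 of 9 members the difference was at least 25 points, as it was in 30.1% of all coding genes. None was higher by that much with DMSO, as 3.07% of all coding genes were. The members were long, 21.1 to 296.7 kb with a median of 81.8 kb. Among the 9171 coding genes in that range, 32.6% were at least 25 points higher with A939572. The median difference was 41.3 points over the members, 0 over all coding genes and 1.51 over those of like length. Of all coding genes 7096 had no peak in either list, as had 1268 of those of like length. A gene was called marked where 50% or more of its body lay under peaks. Control peaks marked 3 members (Pik3cd, Pik3r1 and Foxo1), against 5.47% of all coding genes. Inhibitor peaks marked 7, all but Pik3cg and Mtor, against 26.1% of all coding genes and 28.8% of those of like length. Over the 5711 coding genes that inhibitor peaks marked, a set picked by that cover, the median difference was 54.2 points. Of them 5180 were at least 25 points higher with A939572. Picking genes by inhibitor cover favours such a difference, and Pik3cg and Mtor were not in that set.

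In order of control cover the genes were Pik3cd, Pik3r1, Foxo1 and Rictor (74.7% to 45.9%), and then, after a gap, Akt2, Rptor, Pik3cg, Akt1 and Mtor (11.2% to 0.503%). In the inhibitor list the order was Pik3cd, Foxo1, Akt1, Pik3r1 and Rictor (100% to 83.9%), followed by Akt2, Rptor, Pik3cg and Mtor (62.4% to 8.08%). With 1 library a condition, no spread says which neighbours in these orders differ. Akt1 moved most between them, from the eighth to the third place.

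Strong peaks alone gave a control cover of 0% in every member. A strong control peak was rare throughout: 3.92% of all coding genes held one and 1.33% were marked by them. Strong inhibitor peaks lay in 8 of 9 members (34.7% of all coding genes) and marked 5 (19.6%): Pik3cd at 100%, Akt1 at 96.9%, Pik3r1 at 90.8%, Rictor at 72.7% and Akt2 at 58.3%. They covered 36.1% of Rptor, 26.1% of Pik3cg, 4.71% of Mtor and 0% of Foxo1. The difference was at least 25 points in 7 members, against 26.3% of all coding genes. With the stricter filters of −log10 q of at least 5 or fold of at least 3, 4 members still differed by that much, Pik3cd, Pik3cg, Pik3r1 and Rictor, against 13.2% and 12.9% of all coding genes under these filters. Neither list kept a peak in the other five.

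**Figure D2:**
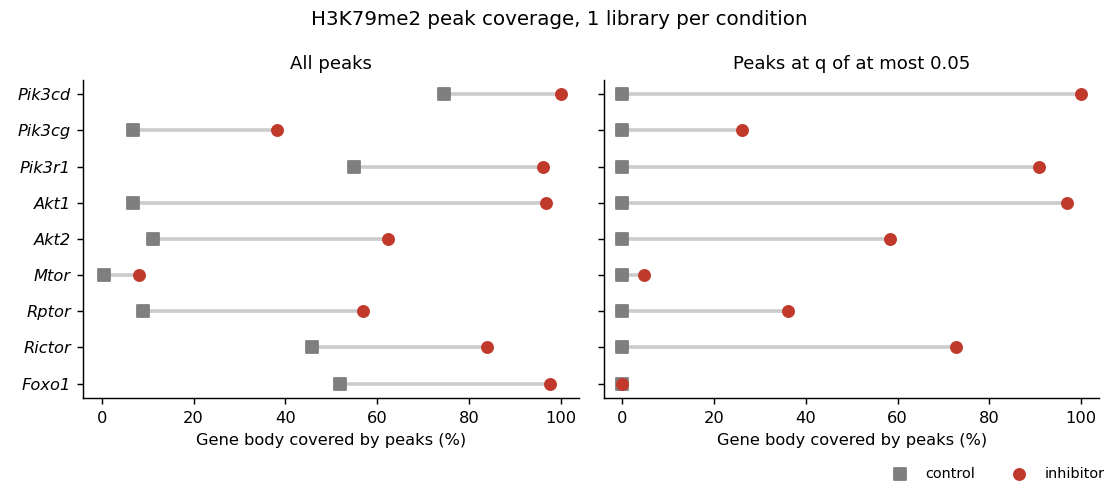
Percent of each gene body covered by control (grey squares) and inhibitor (red circles) peaks, for all peaks on the left and for peaks at q of at most 0.05 on the right, from 1 library each. The inhibitor value is the higher one in all 9 genes on the left, and on the right all control values are 0.

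Position along the gene showed a common layout. At 2 kb from the gene start 9 of 9 members lay under an inhibitor peak, against 47.2% of coding genes of like length with a known strand, and 7 of 9 under a control peak, against 26.6%. The 2 without a control peak at 2 kb were Mtor and Foxo1. Of the distances read, 2 kb had the most members under a control peak. Coding genes of like length also had their largest share there, in both lists. At 1 kb and at 3 kb the control count was 4 of 9, against 20.7% and 23.5% of coding genes of like length. The inhibitor counts there were 8 and 9, against 46.7% and 45.3%. At the start itself 5 of 9 lay under an inhibitor peak (31.2% of like length) and 1, Pik3cd, under a control peak (7.67%). The inhibitor peak began before the start in Pik3cd, Pik3cg, Pik3r1, Mtor and Rictor and 0.152 to 1.25 kb after it in Akt1, Akt2, Rptor and Foxo1. At 20 kb from the start, where all 9 genes still run, 7 lay under an inhibitor peak (31.0%) and 4 under a control peak (15.3%).

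**Figure D3:**
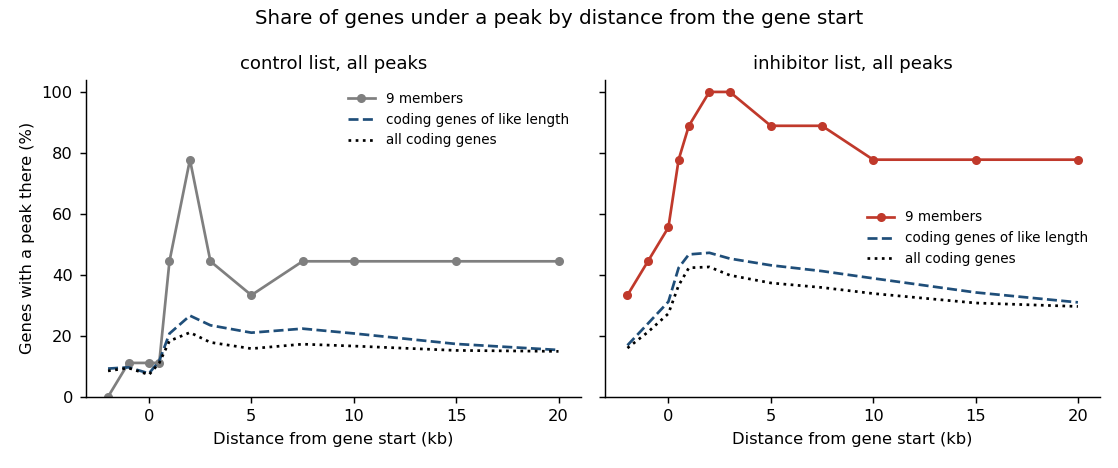
Percent of genes under a peak of any strength against the distance from the gene start in kb, control list on the left and inhibitor list on the right, for the 9 members (solid line), coding genes of like length (dashed) and all coding genes (dotted). The members are highest at 2 kb in the control list, at 77.8%, and at 2 and 3 kb in the inhibitor list, at 100%, with n = 9 genes.

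Over the first 5 kb, measured from the outermost annotated start, inhibitor peaks covered at least 50% of all 9 genes, against 36.6% of the 17491 coding genes with a known strand. Control peaks did so in 3 (Pik3cd, Rictor and Pik3r1, at 100%, 85.8% and 82.2%), against 13% of those genes. The difference there was at least 25 points in 6 members (33.3% of those genes) and smaller in the same 3 that the control list covered. The gene that differed least over its whole body, Mtor, differed most over its first 5 kb, by 96.8 points. With strong peaks alone, inhibitor peaks covered 50% or more of the first 5 kb in 8 members, all but Foxo1 (29.7% of those genes), control peaks in 0 (2.96%), and the difference was at least 25 points in 8 (29.6%).

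The weak control peaks lay largely where the inhibitor list had peaks. Of the 208.8 kb of these genes under control peaks, 96.3% also lay under inhibitor peaks, which covered 65.0% of the summed gene length. Over the 5711 coding genes marked in the inhibitor list the same share was 92.7%, with 77.7% of the length covered, and over all coding genes it was 54.3%, with 20.1% covered. In Pik3cd, Akt1, Akt2 and Foxo1 all control bases lay under inhibitor peaks, and in Mtor none did. The 60 control peaks at the members had a median width of 1.498 kb and folds of 1.40 to 2.08. The 41 inhibitor peaks had a median width of 1.99 kb and folds of 1.47 to 4.43, and 10 of them were strong.

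The rest of the pathway was read from a list of 52 other genes. Of these, 29 were covered over at least 25 points more with A939572, 2 over at least 25 points more with DMSO, and 21 did neither. Over all coding genes 30.1% and 3.07% differed by that much in these directions. The median difference was 31.7 points, against 0 over all coding genes. For strong peaks alone the numbers were 31 (26.3% of all coding genes) and 0 (0%). The groups below hold 3 to 9 genes each, and their counts are read against the same 30.1%.

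Among the other PI3K subunits 3 of 6 differed by at least 25 points, all with more cover under A939572. Pik3r5, the adaptor that couples p110gamma to G proteins, was covered over 12.2% and 67.5% (control and inhibitor, as in all pairs below), and Pik3cb, the catalytic subunit p110beta, over 13.7% and 44.2%. Of the brakes on PI3K and AKT, 2 of 6 were higher by that much with A939572, a share near that of all coding genes, and 1 was higher with DMSO. Inpp5d, the lipid phosphatase SHIP1 of blood cells, was covered over 9.56% and 49.7%, and Pik3ip1, a membrane inhibitor of PI3K, over 64.5% and 100%. Inpp4b, a phosphatase for another phosphoinositide, went the other way, with 36.9% and 9.39%, by weak peaks alone; it overlaps another coding gene.

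Of the AKT activators and substrates 3 of 4 were higher by at least 25 points with A939572, among them the kinases Gsk3a (15.0% and 100%) and Gsk3b (44.4% and 86.4%), both inhibited by AKT. None of the 4 genes for TSC and RHEB, the switch between AKT and mTOR, differed by 25 points with all peaks, and their median difference was 11.3 points. With strong peaks alone 1 of them did, Rheb, the GTPase that activates mTOR complex 1, at 0% and 91.4%, against 72.1% and 91.4% with all peaks. Of the mTOR complex partners 4 of 6 did, all with more cover under A939572. Akt1s1, the AKT substrate PRAS40, was covered over 0% and 100%, and Deptor, an mTOR inhibitor, over 14.5% and 64.0%.

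The Rag GTPases and the Ragulator, which bring mTOR to the lysosome, had the largest median difference of the 9 pathway groups, 71.6 points, with 6 of 9 genes at least 25 points higher. Lamtor3 and Lamtor4 of the Ragulator were covered over 0% and 100%. These genes are short (median 6.07 kb), and a peak at the start can cover such a gene whole. The part of gene length in the difference was not tested. Of the targets of mTOR complex 1, 5 of 6 were higher, with the translation repressor Eif4ebp1 at 5.93% and 84.1% and the S6 kinase Rps6kb2 at 0% and 63.7%. Of the FOXO relatives 2 of 3 were higher, Foxo3 at 45.2% and 100% and Foxo4 at 0% and 68.2%, and Foxo6 had no peak in either list.

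Genes known to depend on FOXO1 in lymphocytes had a median control cover of 55.3%, against 11.2% for the members. They are much shorter, with a median of 9.35 kb against 81.8 kb, and the part of gene length in this was not tested. The Rag and Ragulator genes, the shortest group by median (6.07 kb), had a median control cover of 0.729%. Of 8 such genes 4 were higher by at least 25 points with A939572 and 1 with DMSO. The chemokine receptor Ccr7 was covered over 0% and 81.5% and the egress receptor S1pr1 over 82.7% and 0%, both by weak peaks alone. Strong control peaks covered 56.2% of Pik3ip1, 53.2% of Il7r and 91.8% of Cdkn1b, the cell cycle inhibitor p27, and strong inhibitor peaks 100% of each. These genes are named here after their values were seen.

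**Figure D4:**
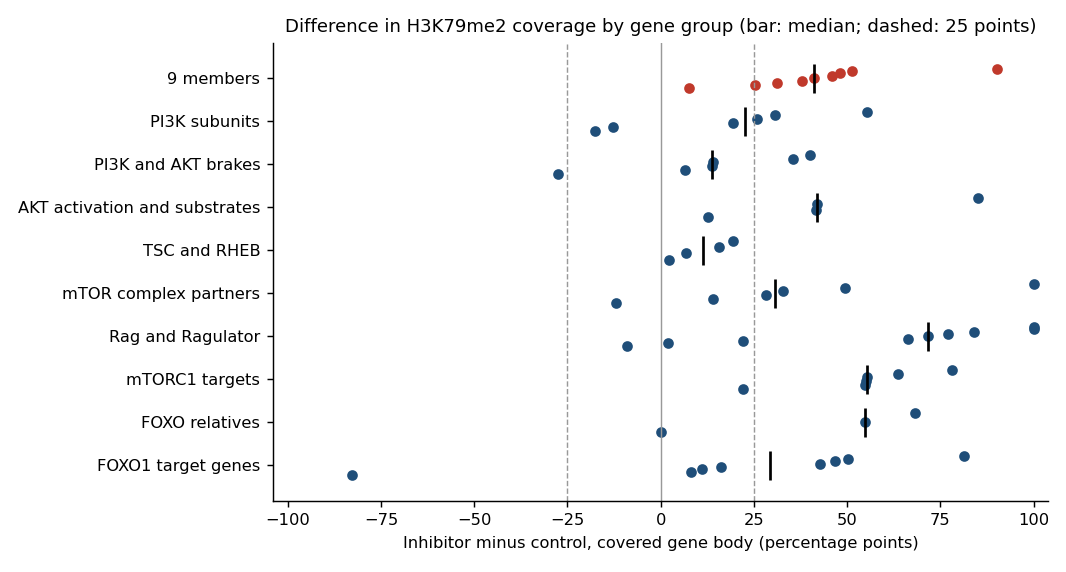
Inhibitor minus control covered percent of the gene body, in percentage points, for the 9 members (red) and the 52 other pathway genes by group (blue); each point is a gene, the black bar the group's median and the dashed lines 25 points. The members' median is 41.3 points, and the points left of the lower dashed line are Inpp4b and S1pr1.

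The pathway genes nearest to the members' medians were Pik3r5, Ulk1, an autophagy kinase under mTOR (10.3% and 65.1%), and Lamtor2 (0% and 71.6%). Nearness was the Euclidean distance over 4 values, the covered percents in both lists for all peaks and at q of at most 0.05, and came to 18.0, 19.6 and 21.3 points. It describes 2 libraries only.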

How the data were processed

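ChIP-seq of H3K79me2 gave 2 deposited broad peak lists, 1 per condition. Per the submitters' processing notes BWA, MACS2 2.1.0 and mm10 are named; the role and options of each, and the use of the inputs, are not given in these sources. The deposited values are the authors' fold enrichment (a ratio), −log10 p, −log10 q and a deposited score, which equals the whole part of 10 times −log10 q in every row. The lowest −log10 p was 1.00 in both deposited lists. Peaks were ranked by fold and q only within a list; the filters on q and fold were the same for both lists, so filtered differences also carry the lists' unlike q and fold.

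Peaks that touched were merged and intersected with RefSeq gene bodies of GRCm38.p6 (21883 coding genes) in Python 3.11.15 with numpy 2.4.6 and pandas 2.3.3; figures were drawn with matplotlib 3.10.9. Strands and starts came from the RefSeq promoter table, which holds 17491 of the genes; all 9 members matched. Of the coding genes, 3839 overlap another, and peaks there are shared between them. A difference of at least 25 percentage points was counted. Coverage functions were tested on simulated lists. With 1 library per condition no test was run.

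The members, lists and measures were chosen with earlier results of these data known. Named were all members and, per pathway group, up to 2 genes with the largest difference in favour of the inhibitor list and 1 in favour of the control list, if at least 25 points, plus the 3 genes nearest to the members' medians. Of the pathway genes, some results are not reported here. Alternatives were stricter peaks, the first 5 kb, merging within 1 kb, other thresholds and leaving out overlapping genes; a q of at most 0.06, and the first 5 kb at q of at most 0.05, were added after the values had been seen.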

Additional observations from a re-analysis of the deposited data

How the results depend on the processing

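No paired analysis was possible because each condition had 1 library. The depth behind the peaks is unknown. Members marked in the control list were 3, and 0 at q of at most 0.05, at −log10 q of at least 5, at fold of at least 3, at 80% of the gene body and over the first 5 kb at q of at most 0.05; with any covered base they were 9. Members marked in the inhibitor list were 7, and 3 at −log10 q of at least 5 and at fold of at least 3. Members higher by at least 25 points with A939572 were 8, and 4 under each of these 2 filters, under which the median difference of 41.3 points became 0; 2 members differed by at least 50 points. The genes lost under both filters were Akt1, Akt2, Rptor and Foxo1, since fewer peaks were kept. Of the pathway genes, 29 were higher by that much with A939572, 16 at −log10 q of at least 5, 15 at fold of at least 3 and 19 over the first 5 kb, where 40 have a known start. Those higher with DMSO were 2, and 0 at q of at most 0.05, at −log10 q of at least 5 and at fold of at least 3, and 1 over the first 5 kb and without overlapping genes. No member became higher with DMSO under the settings run. With q of at most 0.06 Foxo1 differed by 97.7 points, and by 0 at q of at most 0.05.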
